A study of Homo sapiens with 16 samples.

Results

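The SLIT and ROBO genes were followed through open chromatin: the ligand genes SLIT1, SLIT2 and SLIT3, the receptor genes ROBO1, ROBO2 and ROBO3, and the effector genes SRGAP1 and SRGAP3. These 8 genes were chosen by name, out of 19974 protein-coding genes, of which 18755 had enough covered bases to be tested, all 8 members among them. For each gene, peaks and the bases they cover were counted in the hg38 gene body and 20 kb on either side, in each of 16 ATAC-seq libraries. ATAC-seq marks open chromatin as the places where the Tn5 transposase can cut.

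In the RefSeq gene table, SLIT1 (NCBI gene 6585) spans chr10:96998038-97185959, SLIT2 (9353) chr4:20251905-20620561 and SLIT3 (6586) chr5:168661740-169301139. ROBO1 (6091) spans chr3:78597239-79767998, ROBO2 (6092) chr3:75906675-77649964 and ROBO3 (64221) chr11:124865432-124881471. SRGAP1 (57522) spans chr12:63844700-64162217 and SRGAP3 (9901) chr3:8980591-9363027. The table used lists no exons, so a region inside a gene is not placed in an exon or an intron.

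SLIT proteins are large secreted glycoproteins, and ROBO proteins are the receptors of the immunoglobulin superfamily that bind them. Binding mostly repels growing axons and migrating neurons, and the srGAP proteins bind the tail of ROBO inside the cell and act on small GTPases that control actin. In the developing cerebral cortex the pathway is known for guiding axon tracts and interneurons and for effects on progenitor division. ROBO3 is the divergent receptor, known for letting commissural axons cross the midline.

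All cells came from the established human embryonic stem cell line H9, labelled WT, into which both reporters had been built, so every group carries both. EGFP was linked through P2A to the stop codon end of 1 SOX2 allele and marks neural progenitors. dTomato under the human Synapsin1 promoter (hSYN1) sat at the AAVS1 locus and marks neurons. Telencephalic organoids enriched for dorsal tissue were sorted at days 40, 60, 90 and 120 into EGFP+ cells (progenitors) and dTomato+ cells (neurons), with 2 libraries for each of the 8 groups. Early means days 40 and 60 and late means days 90 and 120. Neither separate cultures for the 2 libraries of a group nor the number of clones behind the line is stated in the labels, so p-values measure only spread between libraries, possibly of technical origin. A population can gain or lose covered bases through the share of cells of a type as well as through the chromatin of each cell, and the 2 cannot be told apart in bulk.

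The lists held 68364 to 138554 peaks and covered 36.9 Mb (progenitor day 120 replicate 2) to 104.2 Mb (neuron day 40 replicate 1), and read depth is unknown. Levels are therefore also given as covered bases per Mb called, that is, per 1 Mb of peaks in the whole list. Of 10 progenitor markers, 7 were higher in progenitors and 0 lower (SOX2 by 1.12 on the log2 scale), and of 10 neuron markers 4 were higher in neurons (GRIA2 with -1.18 for progenitors minus neurons) and 0 lower. Summed over the list, progenitor markers lay at 911.9 to 1184.6 covered bases per Mb called in progenitors and 579.2 to 812.5 in neurons, while neuron markers overlapped, at 1410.4 to 1779.0 and 1569.2 to 2326.5. Among markers of other cells, 2 of 6 GABAergic, 1 of 5 endothelial, 1 of 5 microglial and 1 of 5 choroid plexus genes were higher in progenitors, and 2 of 5 mesenchymal genes were higher in neurons. Of all genes tested, 9.90% were higher in progenitors and 11.1% in neurons. Summed levels overlapped between progenitors and neurons in each of these 5 lists of other cells: 419.8 to 644.2 and 344.2 to 599.4 for GABAergic, 101.1 to 188.5 and 103.0 to 221.9 for endothelial, 94.8 to 179.5 and 100.5 to 139.7 for microglial, 65.6 to 105.2 and 66.6 to 151.5 for mesenchymal, and 73.8 to 128.5 and 31.1 to 94.0 for choroid plexus markers. 4 of 5 choroid plexus and 2 of 5 mesenchymal markers had no covered base in at least 1 library. Their part in the results below was not tested.

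The starts of SLIT1, ROBO2 and ROBO3 passed the test between the populations in the fit of start windows given below, so the 250 bases before them are shown first, from RefSeq on GRCh38.p14, read 5′ to 3′ along the gene. Capitals mark a GC box (GGGCGG or CCGCCC, either strand). ROBO2 and ROBO3 have several listed starts, numbered along the gene. Start 2 of ROBO2, which lies about 730 kb downstream of start 1, is shown for contrast. At ROBO3 start 1 the open region is chr11:124865401-124866776, mostly past the start. Most of the stretch printed for it, with the GC box, thus had no peak in any library.
SLIT1 start, chr10:97185960-97186209, minus strand: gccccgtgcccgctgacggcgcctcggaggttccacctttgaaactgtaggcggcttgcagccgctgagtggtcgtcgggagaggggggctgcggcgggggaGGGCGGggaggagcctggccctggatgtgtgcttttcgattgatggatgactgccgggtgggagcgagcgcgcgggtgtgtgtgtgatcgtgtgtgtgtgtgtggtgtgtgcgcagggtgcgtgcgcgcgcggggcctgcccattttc
ROBO3 start 1, chr11:124865182-124865431, plus strand: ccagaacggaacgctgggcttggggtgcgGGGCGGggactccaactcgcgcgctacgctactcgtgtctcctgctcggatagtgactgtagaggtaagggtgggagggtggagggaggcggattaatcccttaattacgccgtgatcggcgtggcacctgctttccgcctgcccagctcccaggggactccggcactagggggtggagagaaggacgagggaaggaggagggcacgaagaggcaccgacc
ROBO2 start 1, chr3:76310630-76310879, plus strand: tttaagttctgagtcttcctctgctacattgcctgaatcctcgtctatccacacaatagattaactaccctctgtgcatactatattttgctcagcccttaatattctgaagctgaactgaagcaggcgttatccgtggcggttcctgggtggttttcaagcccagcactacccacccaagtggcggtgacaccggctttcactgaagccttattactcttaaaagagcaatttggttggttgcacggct
ROBO2 start 2, chr3:77039849-77040098, plus strand: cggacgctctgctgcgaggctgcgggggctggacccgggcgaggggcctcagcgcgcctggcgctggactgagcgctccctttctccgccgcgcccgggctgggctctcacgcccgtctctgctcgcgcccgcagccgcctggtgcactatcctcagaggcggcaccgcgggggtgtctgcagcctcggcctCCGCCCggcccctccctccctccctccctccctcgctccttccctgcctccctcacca

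These 4 stretches differ in base composition. G and C make up 68.4% of the SLIT1 stretch, 64.4% of ROBO3 start 1, 46.8% of ROBO2 start 1 and 76.0% of ROBO2 start 2, against a median of 62.0% over 22132 RefSeq starts. The ROBO2 starts thus lie on either side of the median, with 7 CG pairs at start 1 and 27 at start 2. A GC box stood in 7 of the 12 member starts and in 53.74% of all starts. A TATA box (TATAAA or TTTATA, either strand) stood in 1 member start, that of SRGAP3, and in 8.996% of all starts. An E-box of the kind bound by proneural factors (CAGCTG or CAGATG, either strand) stood in 1 member start, ROBO3 start 2, and in 22.15% of all. A match only says that the letters are there.

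Among the ligand genes, SLIT3 had the largest late minus early change of the 8 members in both populations. Its window was widely covered at day 40 and sparsely at day 120 in both populations. In progenitors it held 33.9 and 33.5 kb (day 40), 22.5 and 21.4 kb (day 60), 23.1 and 18.5 kb (day 90), and 11.6 and 3.32 kb (day 120). In neurons it held 43.5 and 38.3 kb (day 40), 14.5 and 8.35 kb (day 60), 11.5 and 11.5 kb (day 90), and 7.97 and 7.20 kb (day 120). The early and late libraries did not overlap in either population once each list was scaled. Progenitors ran from 257.6 to 435.3 covered bases per Mb called early and from 90.1 to 224.5 late. Neurons ran from 152.3 to 417.7 early and from 126.5 to 144.4 late. How many of all genes separate early from late libraries in this way was not counted. In neurons most of the drop lay between days 40 and 60, from a mean of 404.3 to 163.2, whereas progenitors stood at 419.6, 266.5, 205.9 and 113.3 from day to day (n = 2 each). The change from early to late was -1.09 ± 0.12 in progenitors (limma on log2 of covered bases plus 500, scaled to the list, ± SE, adjusted p = 3.09e-05) and -0.88 ± 0.12 in neurons (adjusted p = 0.00013). Among all 18755 genes these ranked 1 and 12 by p. With no scaling both stayed below 0, at -1.20 and -1.15, and neither passed (adjusted p = 0.13 and 0.081). With lists cut to equal length the neuron change was -1.09 (adjusted p = 0.057).

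SLIT2 fell in progenitors and did not pass in neurons. Its progenitor windows held 27.7 and 26.6 kb (day 40), 15.7 and 12.3 kb (day 60), 15.3 and 17.03 kb (day 90), and 13.7 and 3.45 kb (day 120). Neuron windows held 26.9 and 21.7 kb (day 40), 8.997 and 9.23 kb (day 60), 14.5 and 11.3 kb (day 90), and 11.6 and 10.8 kb (day 120). Day 40 thus stood above all later days in both populations, with 221.2 to 356.6 covered bases per Mb called against 93.6 to 194.2 afterwards. The early to late change was -0.72 ± 0.15 in progenitors (limma, adjusted p = 0.0092) and -0.04 ± 0.15 in neurons (adjusted p = 0.93). The test of the difference between these changes gave -0.68 ± 0.21 (limma, adjusted p = 0.14). It passed without the shortest list of each population (adjusted p = 0.035) and with peaks of −log10 q of at least 2 (adjusted p = 0.048). The progenitor call did not pass without progenitor day 40 replicate 1 or day 90 replicate 1 (limma, adjusted p = 0.056 and 0.057), nor in 2 settings that gave larger falls, -0.84 with no scaling (adjusted p = 0.29) and -1.39 with lists of equal length (adjusted p = 0.057).

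SLIT1 had no call over its whole window. Progenitor windows held 16.03 and 17.4 kb (day 40), 21.8 and 17.9 kb (day 60), 24.8 and 21.6 kb (day 90), and 20.9 and 9.06 kb (day 120). Neuron windows held 27.2 and 32.4 kb, 27.4 and 13.6 kb, 17.4 and 20.8 kb, and 15.8 and 11.3 kb. Neurons lay above progenitors at day 40 alone without overlap, and the difference of that day did not pass (-0.48 ± 0.17, limma, adjusted p = 0.096). Each day sets 2 libraries against 2. How many of all genes show no overlap at a day was not counted, here or below. The late minus early difference was 0.09 ± 0.12 in progenitors and -0.31 ± 0.12 in neurons (limma, adjusted p = 0.83 and 0.15).

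Over all 8 members, 2 fell (SLIT2, SLIT3) and 0 rose from early to late in progenitors, where 1.46% of all genes tested fell and 1.44% rose. Without progenitor day 120 replicate 2, ROBO1 (0.51) and ROBO2 (0.46) rose as well (limma, adjusted p = 0.031 and 0.048), as they did with peaks of −log10 q of at least 2 (0.42 each, adjusted p = 0.035 and 0.027). In neurons 1 fell (SLIT3) and 1 rose (SRGAP1), where 2.37% fell and 3.30% rose. Markers moved over the same days. In late neurons the progenitor markers FABP7 (0.68) and SLC1A3 (0.80), the neuron marker GRIA2 (0.67) and the mesenchymal genes COL3A1 (1.37) and DCN (0.93) rose, and the neuron markers RBFOX3 (-0.60) and SYT1 (-0.46) fell (limma, adjusted p from 0.0025 to 0.034). That is 2 of 10 progenitor markers, 3 of 10 neuron markers and 2 of 5 mesenchymal genes, with 0 of the 6 GABAergic and 0 of the 5 genes in each of the endothelial, microglial and choroid plexus lists. Summed progenitor markers did not overlap in neurons, at 579.2 to 676.8 covered bases per Mb called early and 687.4 to 812.5 late, nor did choroid plexus markers, at 58.0 to 94.0 and 31.1 to 57.3. Neuron markers (1772.6 to 2326.5 early and 1569.2 to 2054.2 late) and mesenchymal genes (66.6 to 151.5 and 94.2 to 129.9) overlapped. In late progenitors DCX rose (0.72) and RBFOX3 fell (-0.45; limma, adjusted p = 0.0019 and 0.048), and 0 genes of the other lists passed. The part of these markers in the members' changes was not tested. The median change over the members was 0.10 in progenitors and -0.03 in neurons, against -0.05 and 0.06 over all genes tested. No member had a change that differed between the populations by limma (0 of 8, with 2 at an unadjusted p under 0.05, SLIT1 and SLIT2), where 0.629% of all genes did. Of all calls, 49.7% in progenitors and 58.1% in neurons were rises, and 16.7% and 16.04% with no scaling, which moved the median of all genes to -0.16 and -0.20. Few genes passed with no scaling: 5 rose and 25 fell in progenitors, and 47 rose and 246 fell in neurons. In the main fit 271 rose and 274 fell in progenitors, and 618 rose and 445 fell in neurons.

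**Figure D1:**
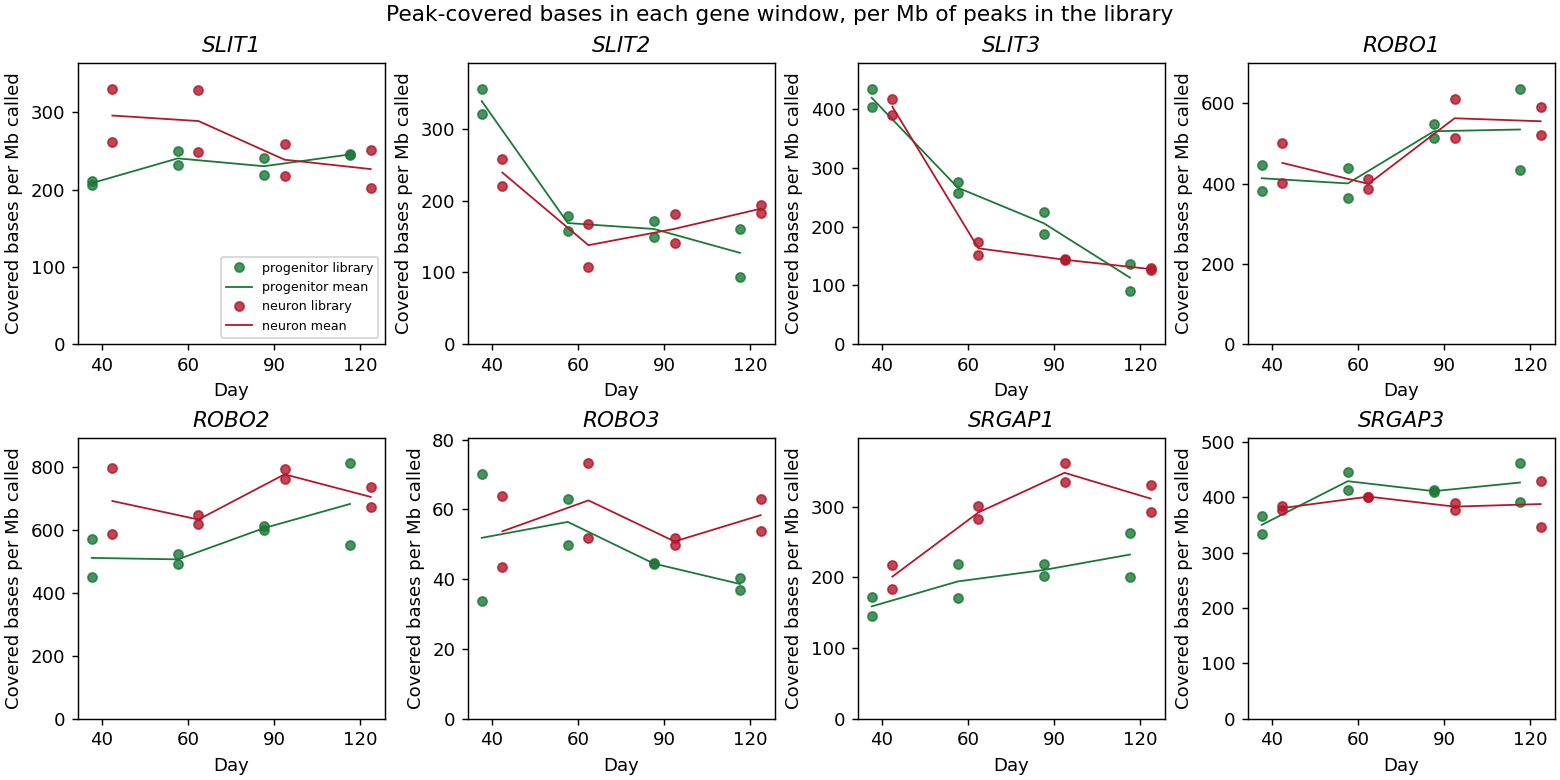
Covered bases in each gene window per Mb of peaks called in the library, by day, for progenitors (green) and neurons (red). Each point is 1 library and the lines join the means of 2. SLIT3 runs from 404.0 to 435.3 in progenitors at day 40 down to 90.1 to 136.6 at day 120, and SRGAP1 lies higher in neurons at each day.

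In SLIT3 and SLIT2, more regions were open early alone than late alone. A region is a merged stretch of peaks from any library. SLIT3 had 114 regions, of which 26 (22.8%) had a peak in at least 2 early libraries and no late library, and 4 (3.51%) the reverse. SLIT2 had 64, of which 16 (25%) were open early alone and 3 (4.69%) late alone. Over all 321056 regions these shares were 10.4% and 6.40%. The mean length of early lists was 81.4 Mb for progenitors and 85.1 Mb for neurons, and that of late lists 80.9 and 69.7 Mb, and the part of this in the shares was not tested. ROBO1 had 14 of each kind among 155 regions, and SRGAP1 had 3 early and 8 late among 65. No member region was open in all 8 early libraries and in no late one. Only 9 of all 321056 regions were, so this is not read as a trait of the members.

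**Figure D2:**
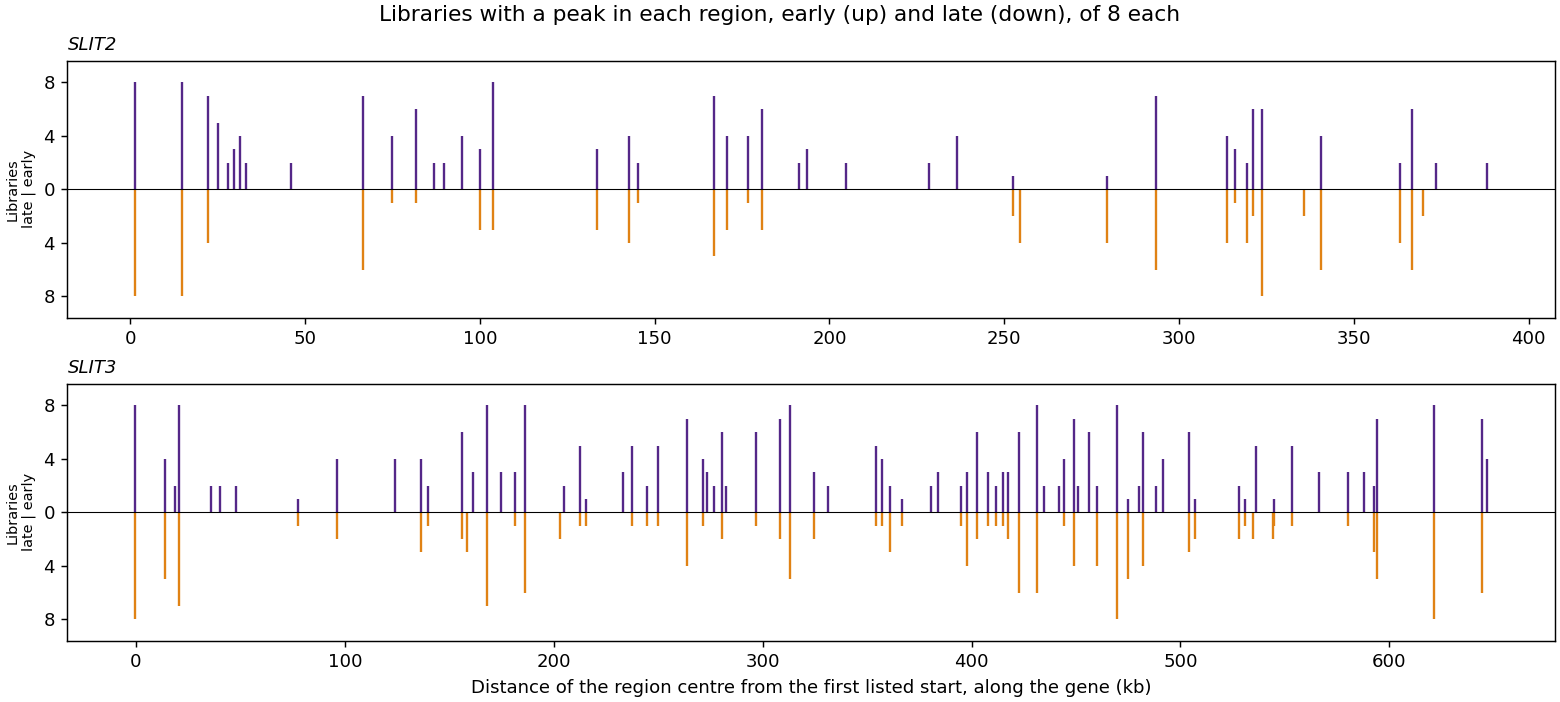
Number of early (up) and late (down) libraries, of 8 each, with a peak in each region of SLIT2 and SLIT3 that had a peak in at least 2 libraries, by distance from the start. Many SLIT3 regions have lines above the axis alone, 26 of 114 regions against 4 below it alone.

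The microRNA miR-218-5p is made from hairpins inside SLIT2 and SLIT3; it is shown because the 2 ligand genes share it. From RefSeq, with bases 2 to 8 (the seed) in capitals, both hairpins give the same mature sequence.
hsa-miR-218-5p: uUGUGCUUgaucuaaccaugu

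No library of 16 had a peak within 1 kb of either hairpin. The nearest region open in at least 2 libraries lay 2651 bases from the SLIT2 hairpin and 1330 bases from the SLIT3 hairpin. No library had one within 1 kb of miR-585 in SLIT3 either, while 8 libraries had a peak within 1 kb of miR-3923 in ROBO1.

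Across populations, SLIT3 was the only member called higher in progenitors, ROBO2 and SRGAP1 were higher in neurons, and the other 5 did not pass. That is 1 of 8 where 9.90% of all genes tested were higher in progenitors, and 2 of 8 where 11.1% were higher in neurons. The median of the members was -0.12 for progenitors minus neurons, against -0.05 over all genes. Of all calls 47.0% were higher in progenitors, and 61.1% with no scaling, under which no member passed. That setting called 1025 genes higher in progenitors and 653 in neurons, against 1856 and 2089 in the main fit.

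SLIT3 was higher in progenitors by 0.26 ± 0.08 (limma, adjusted p = 0.026), with 21.0 ± 10.2 kb covered in progenitors and 17.9 ± 14.5 kb in neurons (SD, n = 8 each). The populations overlapped over all days and at days 40 and 120, and did not overlap at days 60 and 90. At day 90 SLIT3 did not pass (0.48 ± 0.17, limma, adjusted p = 0.13). Its difference passed at day 60 (0.68 ± 0.17, limma, adjusted p = 0.017), and did not without either progenitor library of that day or neuron day 60 replicate 2 (adjusted p from 0.090 to 0.12). With lists of equal length the overall difference was -0.15 (limma, adjusted p = 0.64), the opposite direction. The difference also did not pass without any 1 of 6 libraries (adjusted p from 0.050 to 0.094), namely progenitor day 40 replicate 1, day 60 replicate 2 and day 90 replicate 1 and neuron day 40 replicate 2, day 90 replicate 2 and day 120 replicate 1.

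Of the ligands, SLIT1 passed between the populations at its start and did not over its window. The window held 18.7 ± 4.82 kb in progenitors and 20.7 ± 7.54 kb in neurons (limma difference -0.17 ± 0.09, adjusted p = 0.18). Within 1 kb of the start, the covered bases were 751 and 380 (day 40), 0 and 170 (day 60), 519 and 356 (day 90), and 303 and 0 (day 120) in progenitors. In neurons they were 1965 and 1999, 2001 and 942, 1909 and 1945, and 914 and 559. Neuron libraries were higher on each day, and only neuron day 120 replicate 2 fell below the highest progenitor library. The difference was -2.26 ± 0.26 on the log2 scale (limma over 17423 start windows, pseudocount 100, adjusted p = 8.36e-05). It passed under all 20 alternatives run for start windows, with values from -2.46 to -1.37. The start region was open in 6 progenitor and 8 neuron libraries, and the 300 bases from 250 before to 50 after the start were touched by a peak in 3 and 7.

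The same comparison was made at the 12 listed starts of the 8 genes. 3 passed, SLIT1, ROBO3 start 1 and ROBO2 start 1, all higher in neurons, where 2.65% of start windows were higher in neurons and 3.35% higher in progenitors. This fit was added after the data were seen. The listed starts do not take in the upstream ends of 2 of the genes. ROBO2 begins at chr3:75906675, upstream of its start 1 at chr3:76310880. SRGAP3, on the minus strand, begins at chr3:9363027, upstream of its only listed start at chr3:9249646. The start window of SLIT2 passed as well without progenitor day 120 replicate 2 (-0.33, limma, adjusted p = 0.027, against -0.25 and 0.30 with it). The start windows of SLIT2, ROBO1 (both starts), ROBO3 (all 3 starts), SRGAP1, SRGAP3 and ROBO2 start 2 had a covered base in 16 of 16 libraries. SLIT3 had covered bases at its start in 4 progenitor and 4 neuron libraries: in progenitors 2001 and 1178 (day 40), 82 and 419 (day 60) and 0 from day 90 on, and in neurons 2001 and 1576 (day 40), 847 and 0 (day 60), 845 and 0 (day 90) and 0 by day 120.

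**Figure D3:**
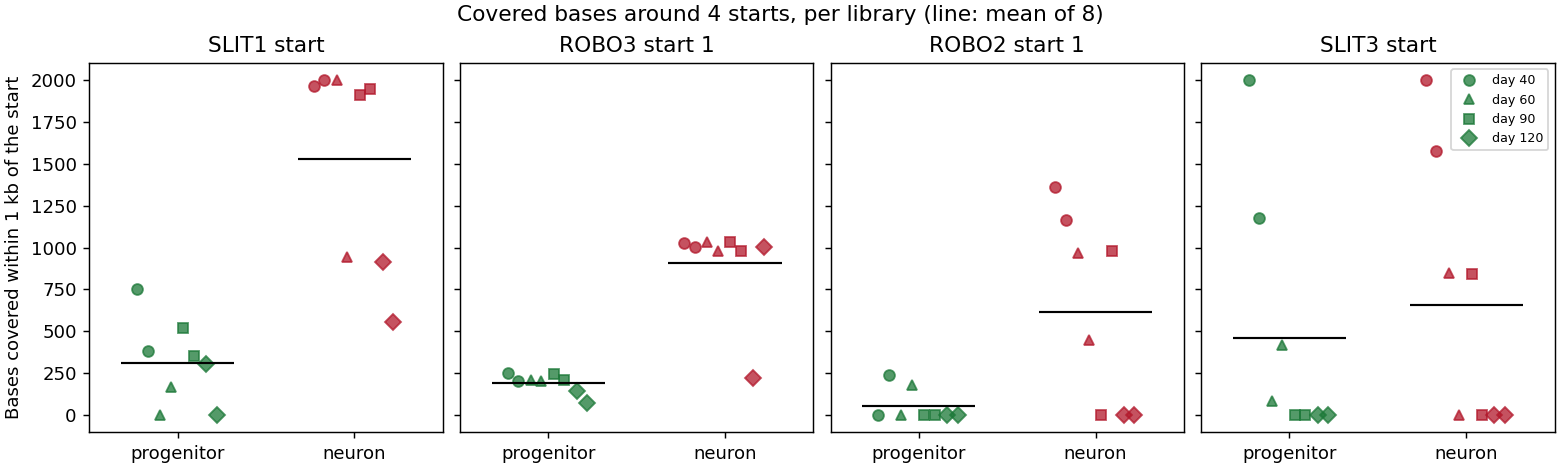
Bases covered within 1 kb of 4 starts in each library, by population and day (marker shape), with the mean of 8 libraries as a line. SLIT1 has a mean of 310 in progenitors and 1529 in neurons, and ROBO3 start 1 a mean of 192 and 910.

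Of the receptor genes, ROBO1 and ROBO2 have the longest windows of the 8 members, 1211 and 1783 kb. ROBO1 did not pass between the populations, with 38.8 ± 14.1 kb in progenitors and 37.9 ± 9.90 kb in neurons (limma difference -0.07 ± 0.09, adjusted p = 0.63). Progenitors held 29.7, 36.9, 38.2 and 28.2 kb in the 4 early libraries and 52.9, 54.1, 54.2 and 15.97 kb in the late ones, so that 3 of 4 late libraries exceeded all early ones and the shortest list, progenitor day 120 replicate 2, did not. Neurons held 52.2, 39.4, 32.4 and 22.5 kb early and 49.0, 41.3, 37.2 and 28.98 kb late. Per Mb called, late neurons (513.8 to 612.1) lay above early ones (387.9 to 500.7). The share of all genes that separate in this way was not counted. The late minus early difference was 0.38 ± 0.12 in progenitors and 0.39 ± 0.12 in neurons and did not pass (limma, adjusted p = 0.096 and 0.060). Without progenitor day 120 replicate 2 the progenitor value was 0.51 (limma, adjusted p = 0.031), and without neuron day 40 replicate 1 the neuron value was 0.47 (adjusted p = 0.037). The neuron value of 0.39 also passed when either progenitor day 120 library was left out, which changes only the spread (adjusted p = 0.039 for each).

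ROBO2 was higher in neurons, by a log2 difference of -0.29 ± 0.09 for progenitors minus neurons (limma, adjusted p = 0.018). Progenitors held 35.2 and 47.3 kb (day 40), 45.6 and 38.2 kb (day 60), 61.9 and 60.5 kb (day 90), and 69.3 and 20.4 kb (day 120). Neurons held 83.1 and 57.7 kb, 54.2 and 34.0 kb, 63.5 and 61.3 kb, and 46.4 and 37.6 kb. Per Mb called the groups did not overlap at days 40, 60 and 90, and overlapped at day 120, where the progenitor libraries stood at 554.0 and 813.5. No single day passed (limma, adjusted p = 0.15, 0.31, 0.32 and 0.91 from day 40 to day 120). The late minus early difference of ROBO2 was 0.33 ± 0.12 in progenitors and 0.17 ± 0.12 in neurons and did not pass (limma, adjusted p = 0.15 and 0.53). Without progenitor day 120 replicate 2 it was 0.46 in progenitors and passed (adjusted p = 0.048). The call between the populations did not pass without progenitor day 40 replicate 1, progenitor day 120 replicate 2 or neuron day 40 replicate 1 (limma, adjusted p from 0.054 to 0.066), and with lists of equal length the difference was -0.02 (adjusted p = 0.93).

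The starts of ROBO2 were read apart. Start 1, the upstream one of the 2 listed but inside the span of the gene, had covered bases in 2 progenitor libraries. These were day 40 replicate 2 (242) and day 60 replicate 2 (179). In neurons it had them in 5 libraries: 1359 and 1162 (day 40), 968 and 451 (day 60) and 977 (day 90 replicate 2). At day 120 no library of either population had a covered base there. The log2 difference of start 1 between the populations over all days was -1.75 ± 0.47 (limma, adjusted p = 0.035). Its change from early to late was not tested. Start 2, the GC-rich one printed above, was covered in all 16 libraries, from 1381 to 2001 bases in progenitors and from 411 to 2001 in neurons, and its difference of 0.46 ± 0.23 did not pass (adjusted p = 0.31). It passed without neuron day 60 replicate 2 (0.67, limma, adjusted p = 0.043) and with 500 bases either side (0.90, adjusted p = 0.039). A difference between the starts was not tested. The start 1 call did not pass without 12 of the 16 libraries, each left out in turn (limma, adjusted p from 0.057 to 0.092).

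ROBO3, the shortest gene at 16.04 kb, held 1.48 to 5.45 kb of covered bases in progenitors and 3.39 to 6.66 kb in neurons by library, with a window that also takes in part of the neighbouring ROBO4. The window did not pass (limma difference -0.23 ± 0.14, adjusted p = 0.26). Its start 1 did. Covered bases were 249, 206, 208, 206, 248, 207, 143 and 72 in progenitors from day 40 to 120 and 1030, 1001, 1032, 977, 1032, 982, 220 and 1003 in neurons. The populations overlapped through 1 neuron library, day 120 replicate 1. The difference was -1.78 ± 0.29 (limma, adjusted p = 0.0013) and passed under all 20 alternatives for start windows. The same 300 bases at start 1 were touched by a peak in 0 of 8 progenitor and 7 of 8 neuron lists, while the region as a whole was open in 16 of 16 and covered 464 bases in progenitors and 1177 in neurons on average. ROBO3 starts 2 and 3, further along the gene, had 1066 ± 187 and 1070 ± 192 bases in progenitors and 777 ± 128 in neurons, differences of 0.35 ± 0.20 and 0.36 ± 0.20 that did not pass (limma, adjusted p = 0.39 and 0.38). With no scaling they were 0.41 each and passed (adjusted p = 0.0088 and 0.0083). The windows of starts 2 and 3 overlap and lie on the same region, with equal values in all 8 neuron libraries. They are thus close to 1 measurement and not 2 separate results.

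Of the effector genes, SRGAP1, whose product acts on CDC42 downstream of ROBO, was higher in neurons by a log2 difference of -0.51 ± 0.09 for progenitors minus neurons (limma, adjusted p = 0.00010). Progenitors held 11.3 and 14.3 kb (day 40), 19.1 and 13.2 kb (day 60), 20.8 and 21.6 kb (day 90), and 22.4 and 7.42 kb (day 120). Neurons held 22.7 and 18.03 kb, 23.6 and 16.5 kb, 28.9 and 26.9 kb, and 20.8 and 16.3 kb. Per Mb called, the neuron libraries lay above the progenitor libraries of the same day at each of the 4 days. The difference passed at day 60 (-0.59 ± 0.17, adjusted p = 0.039) and day 90 (-0.72 ± 0.17, adjusted p = 0.024), and not at day 40 (-0.32, adjusted p = 0.29) or day 120 (-0.41, adjusted p = 0.16), all by limma. The day 60 call did not pass without any 1 of 7 libraries (the 4 of that day, both progenitor libraries of day 90 and neuron day 120 replicate 1, adjusted p from 0.050 to 0.34), nor the day 90 call without any 1 of the 4 of that day (adjusted p from 0.13 to 0.27). With no scaling the overall value was -0.46 (limma, adjusted p = 0.21). SRGAP1 also rose late in neurons (0.44 ± 0.12, limma, adjusted p = 0.030), a call that did not pass without any 1 of 6 neuron libraries (day 40 replicate 2, day 60 replicate 1, and each library of days 90 and 120, adjusted p from 0.054 to 0.13). With no scaling that rise was 0.18 (limma, adjusted p = 0.78).

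SRGAP3, a related Rac-directed GAP, had no call. Its windows held 32.5 ± 8.31 kb in progenitors and 30.0 ± 7.02 kb in neurons (SD, n = 8 each), a limma difference of 0.05 ± 0.08 (adjusted p = 0.68). Its values per Mb called ran from 333.5 to 461.4 in progenitors and from 345.8 to 429.5 in neurons.

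By day, 0 members differed between the populations at day 40 (limma, 3 at an unadjusted p under 0.05), where 6.64% of all genes did. At day 60 the 2 members called were SLIT3 and SRGAP1, where 6.04% of all genes were called. At day 90 it was SRGAP1, where 2.45% were. At day 120 there were 0 (2 at an unadjusted p under 0.05), where 6.87% were.

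**Figure D4:**
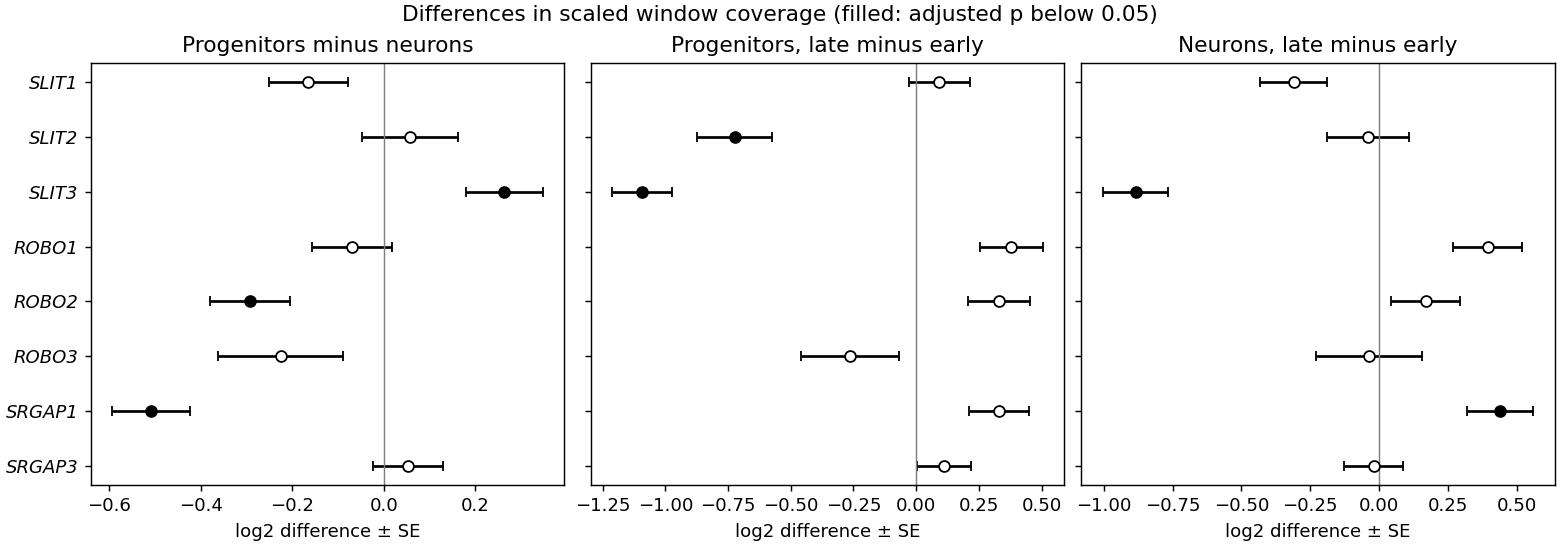
Log2 differences of scaled window coverage, with SE, for progenitors minus neurons and for late minus early in each population. Filled points passed an adjusted p of 0.05: SLIT3, ROBO2 and SRGAP1 in the first panel, SLIT2 and SLIT3 in the second and SLIT3 and SRGAP1 in the third.

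Regions inside the windows gave a finer view. The 8 windows held 808 regions, of which the 520 open in 2 to 14 libraries entered the test (Fisher's exact test, two-sided, 8 against 8 libraries, adjusted over 182575 regions). Of these 12 (2.31%) were open more often in progenitors and 11 (2.12%) in neurons, against 3.06% and 1.27% of all regions tested. Of 98 tested regions, ROBO1 had 5 progenitor regions (5.10%) and 1 neuron region (1.02%). ROBO2 had 4 (2.50%) and 2 (1.25%) of 160, near the shares over all regions, and SRGAP1 1 (2.08%) and 4 (8.33%) of 48. SLIT1 had 1 and 1 of 32, SLIT3 1 and 2 of 78 and SRGAP3 0 and 1 of 55. SLIT2 (43 tested) and ROBO3 (6 tested) had 0. In 7 of the 8 members the region with the most covered bases on average lay at a start, up to 3593 bases at that of SLIT2. The exception was SLIT1, with 1691 bases in chr10:97138492-97141692, 45.9 kb into the gene and open in 16 libraries. Of the 23 called regions 22 lay inside the gene body, 1 in a flank and 0 at a start. Of the 11 regions at starts, 9 were open in all 16 libraries and so did not enter the test, which left 2, those of SLIT1 and ROBO2 start 1.

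4 regions followed the populations without exception, with a peak in 8 libraries of 1 population and 0 of the other (Fisher's exact test, adjusted p = 0.0118). How many of all tested regions split in this way was not counted. In ROBO1, chr3:79081075-79081786, 687 kb into the gene, was open in progenitors and had 602 covered bases on average there. In ROBO2, chr3:76554148-76555214, 244 kb past start 1, was open in neurons and had 681 bases. In SRGAP1, chr12:63937173-63938147 and chr12:64072702-64073634 were open in neurons, with 465 and 654 bases. The coordinates are hg38. The other 19 had 1 exception among the 16 libraries (Fisher's exact test, adjusted p = 0.0323). In SLIT3, chr5:169164446-169165044 had a peak in 7 progenitor and 0 neuron libraries, and chr5:169286704-169287760, 13.9 kb into the gene, in 1 and 8. In SLIT1, chr10:97081624-97082223 had a peak in 7 progenitor and 0 neuron libraries, and chr10:97079393-97080154, its neighbour, in 1 and 8. In SRGAP3, chr3:9116928-9117800 had a peak in 0 and 7. The 3 regions of SLIT2 with the lowest p had a peak in 0 progenitor and 6 neuron libraries each and did not pass (Fisher's exact test, adjusted p = 0.080 each). With a rule that peaks cover at least 50% of a region, 1 member region passed for progenitors and 0 for neurons. Of all 176479 regions tested under that rule, 714 and 155 passed, against 5582 and 2318 of 182575 in the main test.

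**Figure D5:**
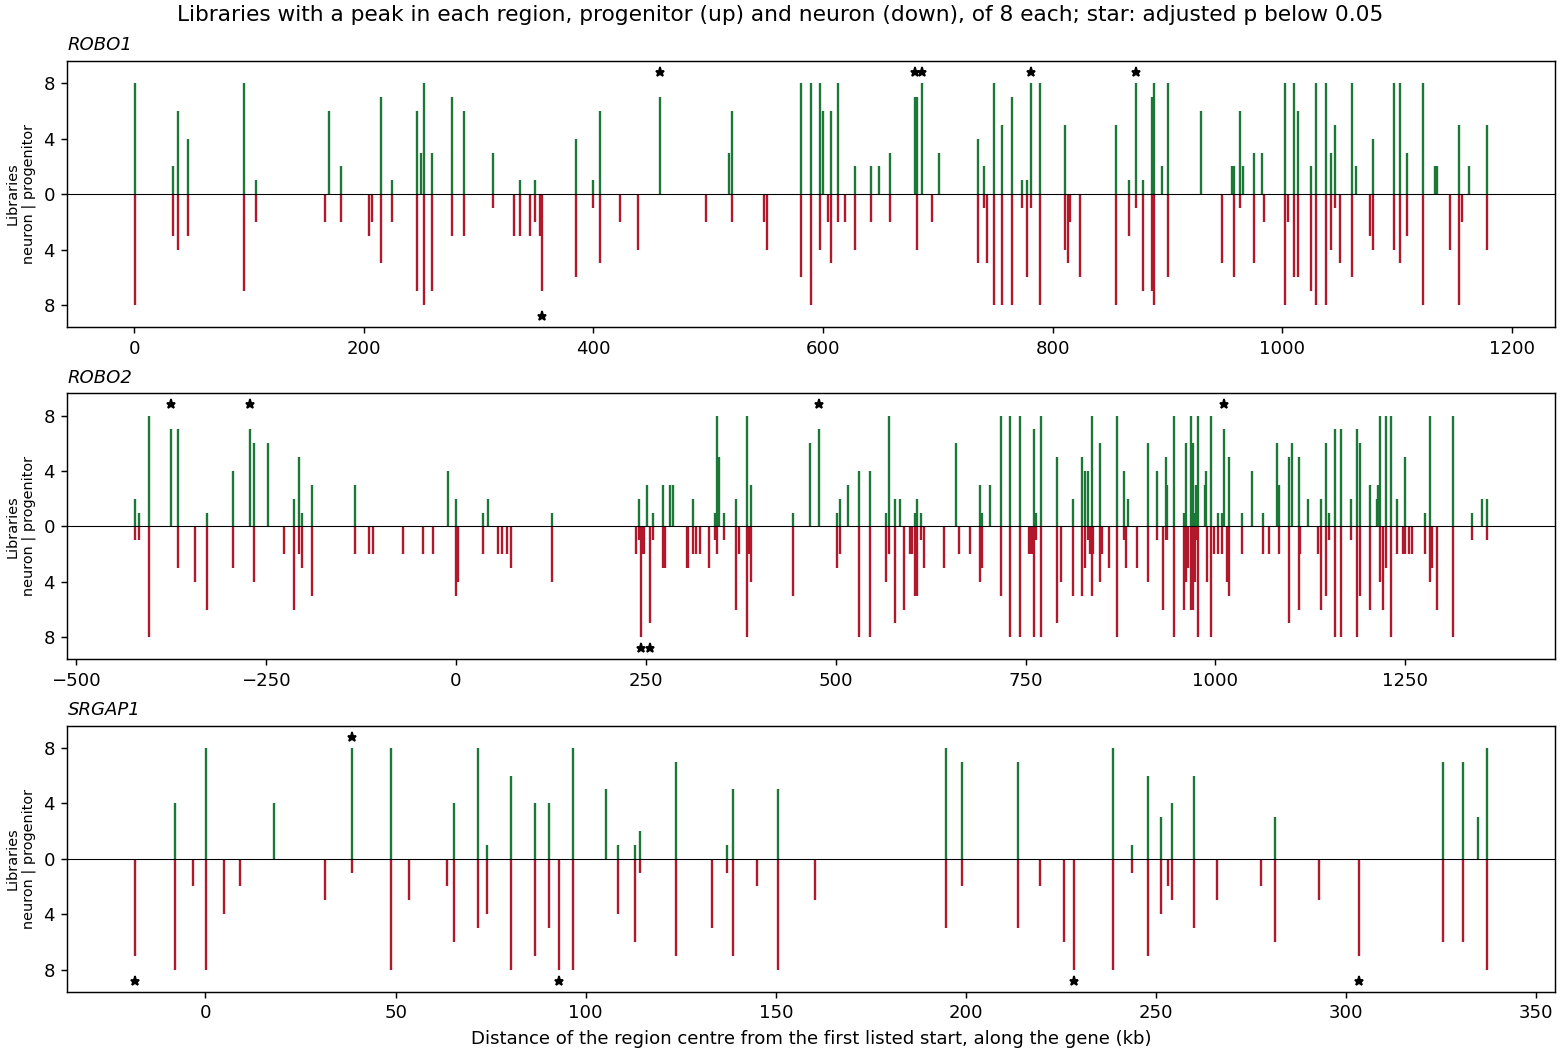
Number of progenitor (up) and neuron (down) libraries, of 8 each, with a peak in each region open in at least 2 libraries, for ROBO1, ROBO2 and SRGAP1, by distance from the first listed start. Stars mark regions with an adjusted p under 0.05, 5 above and 1 below for ROBO1, 4 and 2 for ROBO2 and 1 and 4 for SRGAP1.

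Members varied together in part. Over the 16 libraries, Pearson's r of the scaled log2 coverage was 0.75 between SLIT2 and SLIT3, 0.78 between ROBO1 and ROBO2, 0.78 between ROBO2 and SRGAP1, and -0.75 between SLIT3 and SRGAP1. These libraries share their groups and the scaling, so r is a description. Among genes over 2 Mb away with at least 2000 covered bases on average, the closest pattern to SLIT3 was that of LRMDA (r = 0.92) and CFAP77 (0.90), to SLIT2 CNTNAP3B (0.88) and NDNF (0.86), to SLIT1 AMBRA1 (0.88) and DSCAML1 (0.87). For ROBO1 they were ASCC3 (0.90) and ZNF385B (0.87), for ROBO2 PDE4D (0.88) and TRUB1 (0.87), and for ROBO3 NCAPG2 (0.85) and KDELR2 (0.82). For SRGAP1 they were CNIH1 (0.96) and PPP2R5E (0.95), and for SRGAP3 ANGEL1 (0.84) and RRP1 (0.82).

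A list of 35 other genes of the pathway and its neighbours was fully tested. Of these 5 were higher in progenitors, among them CXCR4, a chemokine receptor (0.84 ± 0.12), SIM1, a transcription factor (0.85 ± 0.15), the GTPase RAC1 (0.47 ± 0.15) and the guidance cue NTN1 (0.39 ± 0.11). And 5 were higher in neurons: NELL2, a ligand of ROBO3 (-0.80 ± 0.12), the adaptor NCK2 (-0.59 ± 0.11), ROBO4 (-0.49 ± 0.16), the netrin receptor DCC (-0.37 ± 0.08) and CAP2 (-0.30 ± 0.10). The windows of ROBO4 and its neighbour ROBO3 overlap and share covered bases, so the ROBO4 call is not separate from the ROBO3 locus. SRGAP2 (0.22), FLRT3 (0.33), CDH2 (0.21) and ABL2 (-0.20) did not pass. The 25 that did not pass included both signs, and the median of the list was -0.07 against -0.05 over all genes. Of all genes tested, 9.90% were higher in progenitors and 11.1% in neurons, so the counts are not read as a trait of the list. From early to late, ISL1 fell in progenitors (-0.80 ± 0.19, limma, adjusted p = 0.021) and 0 rose, and in neurons ABL2, a kinase, rose (0.58 ± 0.13, limma, adjusted p = 0.010) and PLXNA1, a semaphorin receptor, fell (-0.82 ± 0.18, adjusted p = 0.0079). Of all genes tested, 1.46% fell and 1.44% rose in progenitors, and 2.37% fell and 3.30% rose in neurons.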

How the data were processed

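Each of the 16 libraries had 1 deposited list of broad peaks, with the group and replicate number from its title. MACS2 2.1.2 with the build hg38 is named in the submitters' processing notes, beside SAMtools 1.9, Picard, BWA 0.7.17 and Trim Galore 0.5.0. For none of these are settings given in the sources used here. The authors deposited, in each list, a score per peak, the authors' fold ratio over background, and the authors' −log10 p-value and −log10 q-value. These are the peak caller's own values, and only the −log10 q was used for the results, to filter or rank peaks within a list in 2 alternatives (ties ranked by −log10 p).

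Only chromosomes 1 to 22 and X entered (95 to 387 peaks left out per list). Bases covered in each gene and 20 kb on either side were taken as log2 of bases plus 500, minus log2 of the list's total in Mb. Genes with at least 500 bases in at least 2 libraries (18755) entered a limma fit (version 3.58.1, R 4.3.3, trend, 8 group means), with Benjamini-Hochberg adjustment over all genes and a threshold of 0.05. A pseudocount shrinks the change of sparsely covered windows. Lists were called separately at unknown depths and a longer list covers more of any gene, which scaling removes only in part. Regions were tested with Fisher's exact test in Python (scipy). Starts came from RefSeq (GRCh38.p14). Fits were tested on simulated data. Neighbouring windows overlap, so neighbours share values.

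The members and gene lists were chosen with earlier results of these data known. Named genes were all 8 members, the 2 genes most like each, pathway genes that passed with up to 4 that did not, and, for regions, the start region, the largest region and up to 3 with the lowest Fisher p per member. The values of 1 pathway gene that passed are not reported here. Distal sequence is not shown, since no genome was used here.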

Additional observations from a re-analysis of the deposited data

Results flagged for a closer look

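Among 40 sets of 8 libraries (8 gene windows and 12 start windows in each population), 3 held 1 library far from the rest, where chance gives about 1 in 20. ROBO2 stood at 813.5 covered bases per Mb called in progenitor day 120 replicate 1, against 612.8 in the next library. ROBO3 start 1 had 220 covered bases in neuron day 120 replicate 1, against 977 in the next lowest neuron library. SRGAP1 had 2001 bases, the whole start window, in progenitor day 60 replicate 1, against 1617 in the next.

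SLIT2 was higher in both progenitor libraries than in both neuron libraries at day 40 (0.50 ± 0.21 on the log2 scale) and lower in both at day 120 (-0.56 ± 0.21). Neither day passed (limma, adjusted p = 0.16 and 0.11). The difference between populations at day 120 minus that at day 40 was -1.06. SRGAP3 went the other way, each time by less than the SE. Its progenitor libraries lay below the neuron libraries at day 40 (-0.11 ± 0.15) and above them at days 60 (0.09 ± 0.15) and 90 (0.10 ± 0.15). None of these days passed (limma, adjusted p = 0.71, 0.79 and 0.79). Against day 40 this makes differences of 0.20 and 0.21. The changes between single days were not tested. The late against early test of the same quantity did not pass for either gene (limma, adjusted p = 0.14 for SLIT2 and 0.80 for SRGAP3).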

How the results depend on the processing

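Of 1968 values for single genes and start windows under the alternatives, 1871 kept their side of the threshold and their direction where they had passed, 68 no longer passed, 28 newly passed and 1 reversed. That was SLIT3 between the populations, -0.15 with lists of equal length. Most of the 1968 values had not passed in the main fit, so their total says little about how stable the calls are. SLIT3 between the populations no longer passed in 8 of 27 alternatives, beside the 1 reversed. SRGAP1 at day 60 no longer passed in 12 of 27, and ROBO2 start 1 in 13 of 20. SRGAP1 between the populations and the late fall of SLIT3 in progenitors no longer passed in 1 of 27 each. With no scaling 0 members were called higher in progenitors, higher in neurons, changed in progenitors, changed in neurons, or different at day 60 or 90. Over all 18755 genes that setting called 1025 higher in progenitors and 653 in neurons. From early to late it called 5 rising and 25 falling in progenitors, and 47 rising and 246 falling in neurons. With lists of equal length the counts of members were 0 higher in progenitors, 1 higher in neurons, 1 changed in progenitors, 1 changed in neurons and 1 different at day 60. Peaks with a −log10 q of at least 2 gave 0 higher in progenitors, 4 changed in progenitors, 1 whose change differed between the populations, and 1 at each of days 40, 60 and 120. Counting peaks gave 1 higher in neurons and 1, 0 and 1 at days 60, 90 and 120. A pseudocount of 100 and the gene body alone each gave 1 at day 60. Leaving out the shortest list of each population, added after the data were seen, gave 1 higher in neurons, 4 changed in each population, 1 whose change differed, and 1, 1 and 2 at days 40, 60 and 90. The cause was not tested. Member regions open more often in progenitors and neurons numbered 1 and 0 under a rule of 50% of the region covered. Those in neurons numbered 6 with −log10 q of at least 2, 1 with lists of equal length and 7 without the shortest lists. Over all regions, 714 and 155 of 176479 passed under the 50% rule. For neurons the other settings gave 1799 of 151647, 1158 of 72845 and 816 of 173230, in that order, against 2318 of 182575 in the main test.

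Leaving out each library in turn gave 0 to 1 members higher in progenitors, 1 to 2 higher in neurons, 1 to 4 changed in progenitors, 1 to 3 changed in neurons, 0 whose change differed, 0 at day 40, 0 to 2 at day 60, 0 to 1 at day 90 and 0 to 1 at day 120. Member regions ranged from 12 to 20 for progenitors and from 11 to 20 for neurons. The counts over all regions also moved. Where the members reached 20, they were 8711 for progenitors and 3954 for neurons, against 5582 and 2318 in the main test. A lone library is then assumed to vary like the other groups. Same-numbered libraries deviated together weakly in some pairs of groups: the correlation of their deviations ran from -0.12 to 0.25 over 28 pairs, with 6 above 0.1. The fit with a replicate block changed no count of members: 1, 2, 2, 2, 0, and 0, 2, 1 and 0 by day, with 12 and 11 regions. Over all genes it called 1921 higher in progenitors and 2198 in neurons, against 1856 and 2089 without the block. The depth of these lists is unknown, so what it limits could not be given.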
